A study of Mus musculus with 29 samples.

Results

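The genes described here are 9 markers of ON bipolar cell types in the mouse retina: *Car8*, *Strip2*, *Vstm2b*, *Sox6*, *Chrm2*, *Slitrk5*, *Igfn1*, *Cpne9* and *Serpini1*. They were taken by name from a table of 24062 genes, and all 9 were among the 14024 genes with enough reads to be tested. Expression was measured by RNA-seq in 15 libraries, 3 from each of 5 sorted populations: bipolar cells as a whole (pan-BC), the ON class (ON-BC), the OFF class (OFF-BC), rods and *Nrl*-/- photoreceptors, which the study used in place of blue cones and which are called blue cones here. Open chromatin was measured by ATAC-seq in 12 libraries, 2 each from these 5 populations and from green cones. The study asked how gene expression and regulatory DNA diverge between photoreceptors and bipolar cells, and between ON-BC and OFF-BC.

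All bipolar cells came from mice carrying 1 GFP allele at the *Otx2* locus (*Otx2*-GFP+/-), in which bipolar cells fluoresce strongly and photoreceptors weakly. For RNA-seq, pan-BC came from *Otx2*-GFP+/- mice at postnatal day 44 to 47 and were sorted once on GFP. ON-BC and OFF-BC came from *Otx2*-GFP+/-; *Grm6*-YFP+/+ mice at day 42 to 48, in which a YFP transgene under the *Grm6* promoter marks ON cells. ON-BC were sorted once and OFF-BC were sorted again, so gate and number of sorts cannot be told apart. Cells of YFP intensity between these gates were collected as neither population. The ATAC-seq libraries of pan-BC were labelled *Otx2*-GFP+/-; *Grm6*-YFP+/+ at day 43 to 44, and those of ON-BC and OFF-BC carried the same genotype at day 42 to 46. Rods (Nrl-eGFP), blue cones (Nrl-eGFP;NrlKO) and green cones (Opn1mw-GFP) were sorted at day 56 for previous work of that laboratory, so class, study and age cannot be told apart in any comparison of bipolar cells with photoreceptors. Blue cones were photoreceptors of a knockout, not native cones.

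Bipolar cells carry signals from photoreceptors to the inner retina. ON types depolarize to light through the metabotropic glutamate receptor Grm6 and the channel Trpm1, and OFF types hyperpolarize to light through ionotropic glutamate receptors. ON types comprise rod bipolar cells, which serve dim light vision, and several cone bipolar types. *Car8*, *Strip2* and *Vstm2b* are known as genes of rod bipolar cells. *Sox6*, *Chrm2* and *Slitrk5* are used as markers of subtypes of type 5 cone bipolar cells, *Igfn1* of type 7, *Serpini1* of type 8 and *Cpne9* of type 9. In a library from many cells, fewer cells of a type and less RNA per cell cannot be told apart.

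Sequences of regions that the ATAC-seq results turn on are shown first, and whether they regulate these genes was not tested. For 5 of the genes, the distal region with the largest difference between ON-BC and OFF-BC is given whole as 200 bases of the GRCm38 plus strand. For *Vstm2b*, whose promoter region was the only one of the 9 to pass the same test, the first 100 bases are given. Capitals mark TAATCC (bound by K50 homeodomain proteins such as Crx and Otx2), TAATTA or TAATTG (bound by Q50 homeodomain proteins), or the E-box CANNTG, on either strand. TAATTG and CANNTG can share letters.
Higher in ON-BC:
Strip2, chr6:29891207-29891406: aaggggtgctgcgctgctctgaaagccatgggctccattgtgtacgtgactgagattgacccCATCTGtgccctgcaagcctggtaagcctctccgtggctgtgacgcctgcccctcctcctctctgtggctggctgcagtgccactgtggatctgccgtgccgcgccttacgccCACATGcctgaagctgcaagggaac
Slitrk5, chr14:113061878-113062077: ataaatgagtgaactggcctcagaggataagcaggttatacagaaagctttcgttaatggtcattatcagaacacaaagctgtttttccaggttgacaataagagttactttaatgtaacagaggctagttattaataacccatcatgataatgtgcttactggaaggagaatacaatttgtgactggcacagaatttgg
Chrm2, chr6:36200576-36200775: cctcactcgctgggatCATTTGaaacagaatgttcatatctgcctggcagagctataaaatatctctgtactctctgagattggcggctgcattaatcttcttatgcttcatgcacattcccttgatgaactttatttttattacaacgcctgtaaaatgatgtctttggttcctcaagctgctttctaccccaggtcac
Vstm2b, chr7:40898651-40898750: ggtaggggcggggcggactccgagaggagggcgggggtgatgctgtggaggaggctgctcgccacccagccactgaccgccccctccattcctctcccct
Higher in OFF-BC:
Cpne9, chr6:113267241-113267440: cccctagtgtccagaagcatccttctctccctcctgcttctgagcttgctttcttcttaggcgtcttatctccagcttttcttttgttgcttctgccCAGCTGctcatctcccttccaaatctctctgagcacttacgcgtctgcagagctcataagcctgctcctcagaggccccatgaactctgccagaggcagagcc
Sox6, chr7:115827863-115828062: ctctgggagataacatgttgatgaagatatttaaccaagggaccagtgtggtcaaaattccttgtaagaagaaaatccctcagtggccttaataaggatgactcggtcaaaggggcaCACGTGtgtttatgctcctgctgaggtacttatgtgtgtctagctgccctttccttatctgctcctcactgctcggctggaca

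None of these 6 sequences held TAATCC, and none held TAATTA or TAATTG. The E-box CANNTG occurred 2 times in the *Strip2* region and 1 time each in those of *Chrm2*, *Cpne9* and *Sox6*. It was in neither of the other two. The *Sox6* region holds the form CACGTG. Of all 110715 regions in the table, 21.8% held TAATCC, 11.4% TAATTA or TAATTG and 68.7% CANNTG. Among 85 regions of the 8 genes other than *Car8*, 23 held TAATCC, 13 held TAATTA or TAATTG and 63 held CANNTG. These are regions nearest to a start of the gene or from 1000 bp before to 100 bp after it. They include promoter regions nearest to another gene, such as that of *Vstm2b*, which the counts by nearest start below leave out. Of the 12 among them that differed between ON-BC and OFF-BC, the numbers were 4, 0 and 8. In the RefSeq table of GRCm38.p6 promoters, 8 of the 9 genes matched, with 13 entries. *Sox6*, which has 6 starts, gave several of these entries, each with CANNTG, so the 13 do not stand for single genes. In the 250 bases before the start, 2 of these 13 held TAATCC, 1 held TAATTA or TAATTG and 10 held CANNTG, against 6.25%, 11.3% and 66.2% of all 32851 promoters. A match of letters is a description and not a binding site.

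Depth and marker genes of the libraries were described before the genes were compared. RNA-seq libraries held 12329548 to 26266746 counted reads, and ATAC-seq libraries 4176776 to 12345845. Values are normalized counts, that is reads divided by 1 size factor per library. Marker genes other than the 9 were read beside the labels. The gates were set on *Grm6*-YFP and the lists were chosen with earlier results of these data known. They are therefore no independent check of the labels. Between ON-BC and OFF-BC, 7 of 13 ON class genes were higher in ON-BC, led by *Grm6* (log2 fold change 6.24), *Isl1* (5.96), *Gpr179* (3.87) and *Trpm1* (3.19), and 7 of 14 OFF type markers were higher in OFF-BC, led by *Tacr3* (-7.60), *Fezf2* (-7.29), *Col11a1* (-6.66) and *Grik1* (-6.35). Going the other way, without a call, were 1 ON class gene (-0.76) and 1 OFF type marker (1.82). None of 5 pan-bipolar genes was called, and their summed counts were 100498 to 109515 in ON-BC and 186434 to 211950 in OFF-BC. OFF-BC replicate 3 stood apart from the other OFF-BC libraries: its summed rod genes were 2.84 times and its summed cone genes 3.12 times the mean of the other two, and its OFF type markers were 0.72 times theirs. Photoreceptor RNA also differed between the gates. Summed counts of 9 rod genes were 27075 to 32090 in ON-BC and 8334 to 25182 in OFF-BC, with 7 of 9 called higher in ON-BC, and those of 9 cone genes were 5687 to 6464 in ON-BC and 31756 to 106930 in OFF-BC, with 8 of 9 called higher in OFF-BC. Summed counts in the 9 bipolar libraries were 1476 to 3857 for 8 Muller glia genes, 489 to 1451 for 12 amacrine genes, 62.6 to 387 for 7 ganglion genes, 22.2 to 119 for 4 horizontal cell genes and 26.2 to 163 for 7 vascular and microglial genes. Of these 5 lists, *Sox9* (-5.82) and *Slc6a9* (-1.83) were called higher in OFF-BC and *Nefl* (3.27) in ON-BC.

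The comparison of ON-BC with OFF-BC divided the 9 markers. *Car8*, *Strip2*, *Vstm2b* and *Igfn1* were higher in ON-BC, by log2 fold changes of 4.06 to 5.89, or 4.41 to 6.66 without OFF-BC replicate 3. *Sox6*, *Chrm2*, *Slitrk5*, *Cpne9* and *Serpini1* did not pass the test, and *Cpne9* and *Serpini1* had their higher values in OFF-BC. A gene was called when limma's treat test put its log2 fold change beyond 1 at an adjusted p below 0.05. By this rule 4 of 9 markers were higher in ON-BC, against 2.95% of all genes tested, and 0 of 9 were higher in OFF-BC, against 3.6%. At an unadjusted p under 0.05, limma, edgeR and DESeq2 each gave 4 and 0, and limma against no change gave 5 and 2. The share of all genes at an unadjusted p is not given here, so nothing about the markers is drawn from these counts. After adjustment limma against no change gave 4 and 0, and it called 3783 of all 14024 genes in either direction. The median log2 fold change was 0.90 for the 9 markers and -0.02 for all genes. The libraries did not overlap for 7 of 9 markers, against 42.2% of all genes, and they did for *Sox6* and *Chrm2*.

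*Car8* encodes a protein of the carbonic anhydrase family that lacks the enzyme's activity and binds the inositol trisphosphate receptor. Its gene lies at chr4:8141493-8239041 on the minus strand of GRCm38. Its normalized counts were 13602, 14495 and 12925 in ON-BC and 216, 143 and 696 in OFF-BC. They were 11031, 11662 and 9797 in pan-BC. Every ON-BC library lay above every other library, and OFF-BC replicate 3 held 3.88 times the mean of the other OFF-BC libraries. Between the gates the log2 fold change was 5.61 (SE 0.39, limma adjusted p = 2.3e-07), and 6.27 without OFF-BC replicate 3. In photoreceptors *Car8* read 50.5, 48.1 and 95.1 in rods and 3621, 4540 and 5281 in blue cones. All blue cone libraries were therefore above all OFF-BC libraries. The populations ranked ON-BC, pan-BC, blue cones, OFF-BC and rods, with no overlap between neighbours.

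*Strip2*, which encodes a striatin-interacting protein, followed the same order of populations as *Car8*. The gene lies at chr6:29917013-29959681 on the plus strand. Counts were 4660, 3821 and 3826 in ON-BC and 156, 233 and 395 in OFF-BC, with pan-BC in between at 2921, 2789 and 3047. ON-BC exceeded OFF-BC by a log2 fold change of 4.06 (SE 0.22, limma adjusted p = 4.85e-08), and 4.41 without OFF-BC replicate 3. Blue cones held 631, 676 and 816, and rods 48.5, 50.2 and 49.7. No 2 populations overlapped.

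*Vstm2b* encodes a membrane protein with an immunoglobulin V-set domain and lies at chr7:40899278-40929968 on the plus strand. It had the largest difference of the 9 between ON-BC and OFF-BC. ON-BC libraries held 2579, 2640 and 2289, pan-BC libraries 1806, 1940 and 1681, and OFF-BC libraries 29.1, 19.2 and 121. The gates differed by a log2 fold change of 5.89 (SE 0.58, limma adjusted p = 9.58e-06), and 6.66 without OFF-BC replicate 3, which held 5.03 times the mean of the other two. Unlike *Car8* and *Strip2*, *Vstm2b* was near 0 in both photoreceptor types, at 7.76, 2.05 and 7.56 in rods and 3.01, 1.52 and 0 in blue cones. Rods and blue cones overlapped and the other neighbours did not.

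*Igfn1* encodes a protein with immunoglobulin-like and fibronectin domains and lies at chr1:135953578-136006342 on the minus strand. ON-BC libraries held 727, 599 and 496, and OFF-BC libraries 17.9, 10.8 and 78.3. The log2 fold change was 4.53 (SE 0.72, limma adjusted p = 0.002), the least precise of the 4 called, and 5.33 without OFF-BC replicate 3. Pan-BC libraries held 1040, 796 and 1107, so that all 3 lay above all ON-BC libraries. Blue cones gave 16, 10 and 5 reads and rods 6, 0 and 8 reads. OFF-BC overlapped blue cones, and blue cones overlapped rods.

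In OFF-BC replicate 3 these 4 genes moved with other ON genes and with photoreceptor genes. The ratio of this library to the mean of the other OFF-BC libraries was 3.88 for *Car8*, 2.03 for *Strip2*, 5.03 for *Vstm2b* and 5.46 for *Igfn1*. It was 1.42 for the summed ON class genes and 2.04 for 8 other ON type markers. For the other 5 markers this ratio was 0.84 to 1.14. All 4 genes were called in each fit that left out 1 ON-BC or OFF-BC library. The part of the ON class and photoreceptor RNA in these OFF-BC values was not tested.

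The 5 remaining markers were not called between the gates, and no log2 fold change among them passed 1 in size. *Sox6*, a SoxD transcription factor gene at chr7:115470872-116038744 on the minus strand, held 1088, 996 and 862 normalized counts in ON-BC and 1103, 1153 and 1045 in OFF-BC. Its log2 fold change was -0.17, with a 95% interval from -1.07 to 0.73. Pan-BC held 890, 1019 and 790, and pan-BC and OFF-BC each overlapped ON-BC. All bipolar libraries were far above rods (2.91, 9.22 and 22.7) and blue cones (10.5, 21.2 and 17.8).

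*Chrm2* encodes the muscarinic acetylcholine receptor M2 and lies at chr6:36388084-36524774 on the plus strand. ON-BC libraries held 218, 355 and 294, and OFF-BC libraries 88.3, 222 and 178. The gates overlapped through ON-BC replicate 1 and OFF-BC replicate 2, and the log2 fold change was 0.90 (95% interval 0.12 to 1.67; limma adjusted p = 0.083 against no change). Pan-BC held 411, 510 and 395, above every library of both gates. Its exons share up to 79 bp with exons of the antisense gene *9330158H04Rik*, and no strand setting for the counting is given in the sources used here, so reads of the shared stretch cannot be assigned.

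*Slitrk5* encodes a leucine-rich repeat protein of synapses and lies at chr14:111675115-111683144 on the plus strand. ON-BC libraries held 357, 573 and 468, against 238, 332 and 271 in the OFF-BC libraries. The gates did not overlap, but the log2 fold change of 0.72 had a 95% interval from -0.11 to 1.54. Pan-BC (472, 353 and 434) overlapped ON-BC.

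*Cpne9* encodes a copine, a protein that binds phospholipids when calcium is present, and lies at chr6:113282307-113305571 on the plus strand. ON-BC libraries held 366, 420 and 258, OFF-BC libraries 659, 631 and 643, and pan-BC libraries 454, 612 and 563. Every OFF-BC library exceeded every ON-BC and pan-BC library. From OFF-BC to ON-BC the log2 fold change was -0.92 (95% interval -1.81 to -0.02; limma adjusted p = 0.124 against no change).

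*Serpini1* encodes neuroserpin, an inhibitor of tissue plasminogen activator, and lies at chr3:75557493-75642523 on the plus strand. ON-BC libraries held 1883, 1760 and 1898, OFF-BC libraries 2825, 3132 and 2499, and pan-BC libraries 2061, 1813 and 1859. OFF-BC libraries were again the highest. The log2 fold change was -0.60 (95% interval -1.11 to -0.10; limma adjusted p = 0.0737 against no change).

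**Figure D1:**
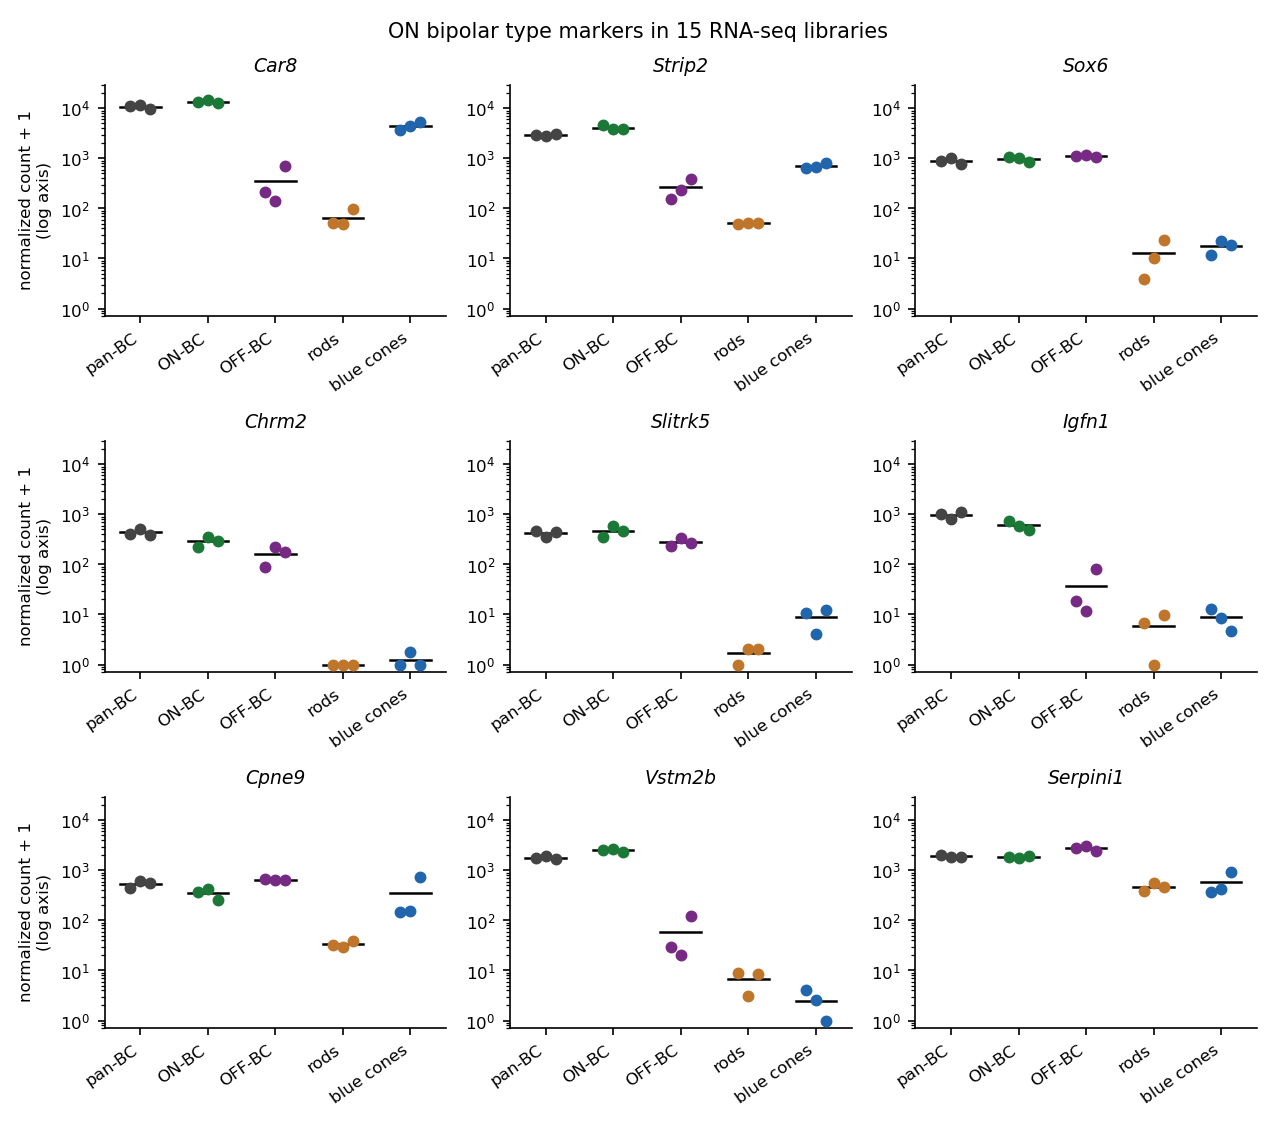
Normalized RNA-seq count plus 1 (log axis) of each of the 9 genes in 5 populations, with 1 point per library (n = 3) and a bar at the mean. *Car8*, *Strip2*, *Vstm2b* and *Igfn1* drop from ON-BC to OFF-BC, *Sox6*, *Chrm2*, *Slitrk5*, *Cpne9* and *Serpini1* stay within 1 order of magnitude across the bipolar libraries, and *Car8* and *Strip2* rise again in blue cones.

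**Figure D2:**
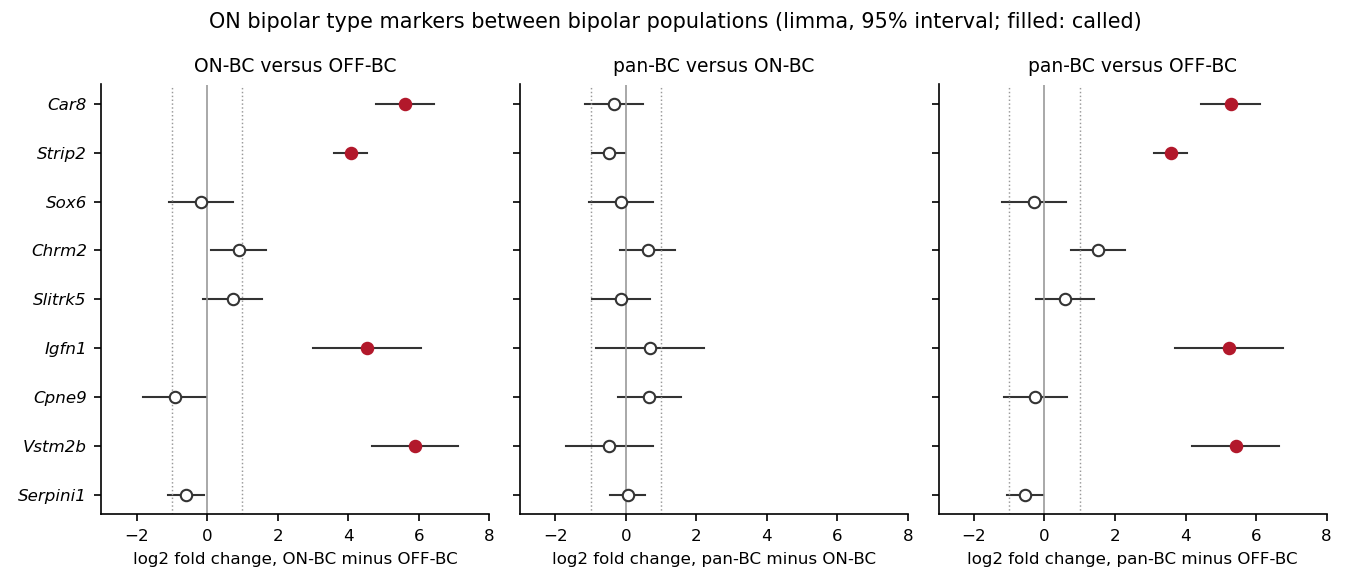
Log2 fold change of the 9 genes in 3 comparisons among bipolar populations, from limma, with 95% intervals as lines. Filled points were called and dotted lines mark a log2 fold change of 1 in either direction. The same 4 genes are filled in ON-BC versus OFF-BC and in pan-BC versus OFF-BC, and none is filled in pan-BC versus ON-BC.

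Per kilobase of exon, the genes differed in level by over an order of magnitude in ON-BC. Mean normalized counts per kb in ON-BC were 2390 for *Car8*, 1720 for *Vstm2b*, 764 for *Strip2* and 582 for *Serpini1*. The others lay between 67.5 for *Igfn1* and 142 for *Chrm2*. In OFF-BC the order was different, with *Serpini1* highest at 888 per kb, then *Cpne9* at 232 and *Sox6* at 118. *Igfn1* was lowest there, at 3.97 per kb.

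Other genes of the ON pathway were higher in ON-BC as well. Of 13 ON class genes, 7 were called higher in ON-BC and none higher in OFF-BC, with a median log2 fold change of 2.48. *Grm6*, the glutamate receptor of the ON response, averaged 13499 in ON-BC and 268 in OFF-BC. *Trpm1*, its effector channel, averaged 56869 and 6297. The orphan receptor gene *Gpr179*, which belongs to the same complex, averaged 13901 and 1001. Of 8 other ON type markers, 5 were higher in ON-BC and none higher in OFF-BC, with a median of 3.96. They were led by *Prkca* (protein kinase C alpha, a marker of rod bipolar cells; 5.71), *Htr3a* (a serotonin receptor of type 5 cells; 4.90), *Sebox* (4.70) and *Cck* (4.37). The lists were chosen with earlier results of these data known, and nothing particular to either list is drawn from the medians.

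The question for pan-BC was whether a gene read in all bipolar cells was read in the ON gate to the same extent. No marker was called in either direction: 0 of 9 were higher in pan-BC, against 0.898% of all genes, and 0 of 9 were higher in ON-BC, against 0.164%. At an unadjusted p under 0.05, limma against a log2 fold change of 1, edgeR and DESeq2 each gave 0, and limma against no change gave 1, *Strip2*. After adjustment limma against no change gave 0 markers, with 853 of all 14024 genes called. *Chrm2*, *Igfn1* and *Cpne9* nevertheless had all pan-BC libraries above all ON-BC libraries, with ratios of the means of 1.52, 1.62 and 1.56. Their log2 fold changes were 0.62 (95% interval -0.16 to 1.40), 0.69 (-0.84 to 2.23) and 0.66 (-0.24 to 1.55). *Car8*, *Strip2* and *Vstm2b* had all ON-BC libraries above all pan-BC libraries, with pan-BC means 0.79, 0.71 and 0.72 of those in ON-BC.

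For *Chrm2* and *Igfn1*, neither of which was called between pan-BC and ON-BC, every pan-BC library lay above all libraries of both gates, 2 of 9 markers against 3.71% of all genes. The lowest pan-BC value was 395 for *Chrm2* and 796 for *Igfn1*, and the highest in either gate was 355 and 727. Genotype differed between these libraries as well as the gate, and the part of cells outside both gates in these values was not tested. Summed counts of the cone genes were 45706 to 72181 in pan-BC, 5687 to 6464 in ON-BC and 31756 to 106930 in OFF-BC. In these genes pan-BC thus lay above ON-BC and overlapped OFF-BC. *Chrm2* was at 0 or 1 read and *Igfn1* at 5 to 16 reads in each blue cone library. The part of cone RNA in the pan-BC values was not tested.

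Against OFF-BC, pan-BC gave the same 4 genes as ON-BC did. *Car8* (log2 fold change 5.27), *Vstm2b* (5.43), *Igfn1* (5.22) and *Strip2* (3.58) were called, 4 of 9 against 2.65% of all genes, and 0 of 9 were higher in OFF-BC, against 0.727%. Without OFF-BC replicate 3 the values were 5.93, 6.20, 6.02 and 3.93. *Chrm2* was 1.52 higher in pan-BC (95% interval 0.74 to 2.29) and did not pass the test against a log2 fold change of 1. Against no change its limma adjusted p was 0.00696. Both comparisons with OFF-BC use the same 3 OFF-BC libraries.

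Bipolar cells and photoreceptors were compared to see which markers are also read in the sister class. All 9 markers were higher in pan-BC than in rods, against 27.8% of all genes, with a median log2 fold change of 7.44 against 0.21 for all genes. *Chrm2* had no read in any of the 3 rod libraries. With 3 counts per library as the floor (2.91 to 3.24 normalized counts), it was at least 143-fold higher in pan-BC, and the median is 7.16 with *Chrm2* at this bound. Among the rest, the smallest difference was that of *Serpini1* (2.04, limma adjusted p = 0.000768), which held 383, 548 and 472 in rods. *Cpne9* came next (4.02), at 31.0, 28.7 and 37.8 in rods. The fold changes of 4 further genes rest on few rod reads: 0, 1 and 1 for *Slitrk5*, 8, 2 and 7 for *Vstm2b*, 3, 9 and 21 for *Sox6*, and 6, 0 and 8 for *Igfn1*. That of *Slitrk5* was 8.02 and ranged from 5.61 to 9.27 over the alternatives, and that of *Vstm2b* was 8.21 and ranged from 7.07 to 8.47. That of *Sox6* was 6.51 and ranged from 5.65 with a pseudocount of 8 to 7.15 without rods replicate 3, and was 5.85 without rods replicate 1. That of *Igfn1* was 7.91 and ranged from 6.32 with a pseudocount of 8 to 8.54 without rods replicate 3, and was 6.91 without rods replicate 2.

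In blue cones 7 of 9 markers were below pan-BC, against 22.7% of all genes. The 2 not called were *Car8* and *Cpne9*. *Car8* averaged 4481 ± 832 (SD, n = 3) in blue cones and 10830 ± 949 (SD, n = 3) in pan-BC. The log2 fold change was 1.29 (95% interval 0.46 to 2.11; limma adjusted p = 0.503, and 0.00669 against no change). *Cpne9* held 144, 154 and 748 in blue cones, and the last value overlapped pan-BC. Its log2 fold change was 1.07 (limma adjusted p = 0.841), and 1.85 (adjusted p = 0.00181) without blue cones replicate 3, when 8 of 9 were called. Adjusted p for *Cpne9* ranged from 0.00181 to 1 over 14 alternatives. *Serpini1* was 936 in the same library and 366 and 429 in the others, and was called (1.85, adjusted p = 0.00452). In that library the summed vascular and microglial genes were 2.29 times the mean of the other blue cone libraries, the summed Muller glia genes 1.45 times, the summed rod genes 1.25 times and the summed cone genes 1.06 times. Their part in the *Cpne9* value was not tested.

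Of the 7 called against blue cones, *Vstm2b* (9.71, limma adjusted p = 1.19e-09) and *Chrm2* (adjusted p = 3.08e-11) had almost no blue cone reads. Their fitted values depended on the setting, from 7.59 to 10.2 for *Vstm2b* and from 5.75 to 10.7 for *Chrm2*, and are not ranked. *Igfn1* (6.91), *Sox6* (5.73) and *Slitrk5* (5.69) were called as well. *Strip2* was called at 2.05 and averaged 708 ± 96.3 (SD, n = 3) in blue cones. *Chrm2* was read once in 1 of 3 blue cone libraries, and *Vstm2b* gave 4, 2 and 0 reads. *Slitrk5* gave 13, 4 and 15 reads and *Sox6* 14, 28 and 24.

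Between the photoreceptor types, 4 of 9 markers were higher in blue cones, against 11.3% of all genes. *Car8* had a log2 fold change, rods minus blue cones, of -6.15 (SE 0.39, limma adjusted p = 8.83e-09) and *Strip2* of -3.80 (SE 0.22, adjusted p = 1.64e-08). *Cpne9* followed at -2.95 (adjusted p = 0.00138), and at -2.17 (adjusted p = 0.000267) without blue cones replicate 3. Over 14 alternatives its adjusted p ranged from 0.000128 to 0.102, and the call was lost in the fit of these populations alone (0.102) and with the replicate block (0.0911). *Slitrk5* was called at -2.32 (adjusted p = 0.0137) on 0, 1 and 1 reads in rods. That call was lost by DESeq2, with a pseudocount of 8, in the fit of these populations alone, with the replicate block (0.234) and without rods replicate 1, blue cones replicate 1 or blue cones replicate 3, with adjusted p from 0.0547 to 1 in those fits and from 0.000454 to 1 over 14 alternatives. *Sox6*, *Chrm2*, *Igfn1*, *Vstm2b* and *Serpini1* overlapped between rods and blue cones.

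**Figure D3:**
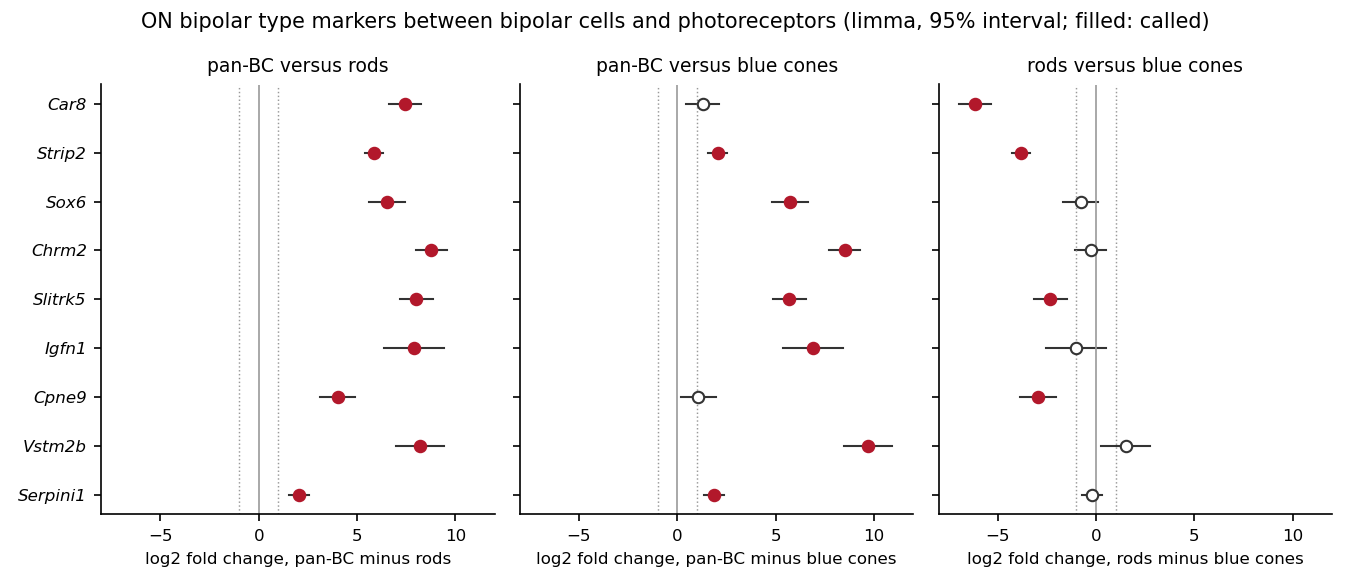
Log2 fold change of the 9 genes between pan-BC and rods, pan-BC and blue cones, and rods and blue cones, from limma, with 95% intervals as lines. Filled points were called, and the fitted value of *Chrm2* against rods, where it had no read, is no bound. All 9 are filled against rods, 7 against blue cones, and *Car8* (-6.15) and *Strip2* (-3.80) lie far on the blue cone side of the last panel.

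The genes whose levels followed each marker most closely were found by Pearson's r of log2 values over the 15 libraries, among 14023 other genes. These values describe the pattern over 5 populations, whose libraries share studies and sorts, and carry no test. *Edil3*, *Ednrb* and *Chgb* were closest to *Car8* (r = 0.98 each), and *Ngfr*, *Cep112* and *Ptpn3* to *Strip2* (0.99 each). *Hs3st4*, *Ptprt* and *Sema3d* were closest to *Vstm2b* (0.99 each), and *Sorl1*, *St18* and *Prkg1* to *Igfn1* (0.98 each). *Sox6* was followed by *Gng10*, *Mab21l2* and *Rit2* (0.99 each), *Chrm2* by *4930563F08Rik*, *Kcnd2* and *4933428G20Rik* (1.00, 0.99 and 0.99), and *Slitrk5* by *Acta1*, *Zfp941* and *Arhgef17* (1.00, 0.99 and 0.99). *Cpne9* was followed by *Saysd1*, *Sez6* and *Rnh1* (0.97, 0.97 and 0.96), and *Serpini1* by *Cd200*, *Oxr1* and *Psma5* (0.99 each). Within the 9 bipolar libraries, *Car8* and *Vstm2b* gave r = 1.00 and *Car8* and *Serpini1* gave r = -0.98, while *Car8* and *Sox6* gave -0.63.

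Chromatin was compared over regions of 200 bp. Regions were given to the gene whose annotated start was nearest, which does not show that it acts on that gene. By this rule 100 of 110715 regions belonged to the 9 genes, from 2 for *Igfn1* to 29 for *Sox6*, and 98 were tested. Regions higher in ON-BC than in OFF-BC numbered 13 of 98, against 4.58% of all regions, and regions higher in OFF-BC numbered 4, against 2.8%. These 17 fell to between 11 and 12 when any 1 ON-BC or OFF-BC library was left out, and to 10 in the fit of these populations alone. In the same fits the 8010 called among all regions fell to between 4175 and 6118, and to 3894. The median log2 fold change was 0.34 for the 98 regions of the 9 genes and 0.15 for all. All 17 lay outside the promoter window (1000 bp before to 100 bp after a start), 15 outside the gene and 2 in an intron of it.

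The regions of *Car8* and *Slitrk5* made up 10 of the 13. *Car8* had 6 higher in ON-BC of 18 tested, between 53015 bp before and 330960 bp after its start. The farthest was not read at all in OFF-BC: it held 152 and 101 normalized counts in ON-BC, 84.0 and 113 in pan-BC and 0 in the OFF-BC, rod and blue cone libraries. It was called (limma adjusted p = 5.82e-05). *Slitrk5*, which did not differ by the test in RNA, had 4 regions higher in ON-BC of 20 tested, between 86933 and 1493854 bp after its start. The region printed above, 1385950 bp away and between genes, held 106 and 105 in ON-BC and 0 and 1.95 in OFF-BC (log2 fold change 5.96, limma adjusted p = 0.000769). It was 5.18 without OFF-BC replicate 1, 6.74 without OFF-BC replicate 2 and 3.67 with a pseudocount of 8. Among the curated RefSeq transcripts used for starts, the next start of another gene lies 919966 bp from that of *Slitrk5*. The *Slitrk5* promoter region lies within the annotated span of another gene, *Gm30439*.

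*Strip2* had 1 region higher in ON-BC of 7, the one printed above, 25707 bp before its start in a coding exon of *Ahcyl2*. It held 140 and 148 in ON-BC and 24.2 and 36.0 in OFF-BC (2.25, limma adjusted p = 0.0157). The call was lost without ON-BC replicate 1, ON-BC replicate 2 or OFF-BC replicate 1 (adjusted p = 0.0538, 0.0783 and 0.135) and in the fit of these populations alone (0.0541), and over 10 alternatives the adjusted p ranged from 0.00946 to 0.135. *Chrm2* had 2 higher in ON-BC and 1 higher in OFF-BC of 9. The printed region, 187409 bp before its start and between genes, held 41.8 and 54.2 in ON-BC and 0 and 5.84 in OFF-BC (4.22, limma adjusted p = 0.0147). With a pseudocount of 8 its log2 fold change was 2.40. Its value was 2.83 (adjusted p = 0.203) without OFF-BC replicate 1 and 5.60 without OFF-BC replicate 2, and the call was also lost without ON-BC replicate 2 (adjusted p = 0.0823) and in the fit of these populations alone (0.093). Over 10 alternatives it ranged from 0.00242 to 0.203.

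*Cpne9* and *Sox6* had regions in the opposite direction only. Of 6 *Cpne9* regions, 2 were higher in OFF-BC. The printed one, 14967 bp before its start in an intron of *Mtmr14*, held 2.99 and 8.78 in ON-BC and 56.6 and 67.2 in OFF-BC (-3.33, limma adjusted p = 0.00103). It was -2.68 without ON-BC replicate 1, -3.97 without ON-BC replicate 2 and -2.36 with a pseudocount of 8. The call was lost in the fit of these populations alone (adjusted p = 0.0626), and over 10 alternatives the adjusted p ranged from 9.89e-06 to 0.0626. Photoreceptors had still higher counts there: rod libraries held 251 and 304, blue cone libraries 150 and 136, and green cone libraries 151 and 144. Of 29 *Sox6* regions, 1 was higher in OFF-BC, in an intron 3252 bp before the nearest of its 6 starts. ON-BC libraries held 4.48 and 4.39, against 55.2 and 52.6 in OFF-BC and 77.7 and 99.0 in blue cones (-3.34, limma adjusted p = 0.00162). With a pseudocount of 8 the log2 fold change was -2.32. The *Sox6* region was low in rods (mean 2.13). So was the *Chrm2* region higher in OFF-BC, 312845 bp before the start of that gene. Its means were 1.46 for ON-BC, 33.9 for OFF-BC, 0.68 for rods, 39.3 for blue cones and 72.3 for green cones. Both regions of *Cpne9* had their highest means in rods (277 and 94.7). By RNA-seq, cone genes were higher in OFF-BC, whereas 7 of 9 rod genes were called higher in ON-BC. Those were other libraries, and the photoreceptor content of the ATAC-seq libraries was not measured. Its part in these 4 regions was not tested. No region of *Igfn1*, *Vstm2b* or *Serpini1* counted by the nearest start was called, of 2, 3 and 4 tested.

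**Figure D4:**
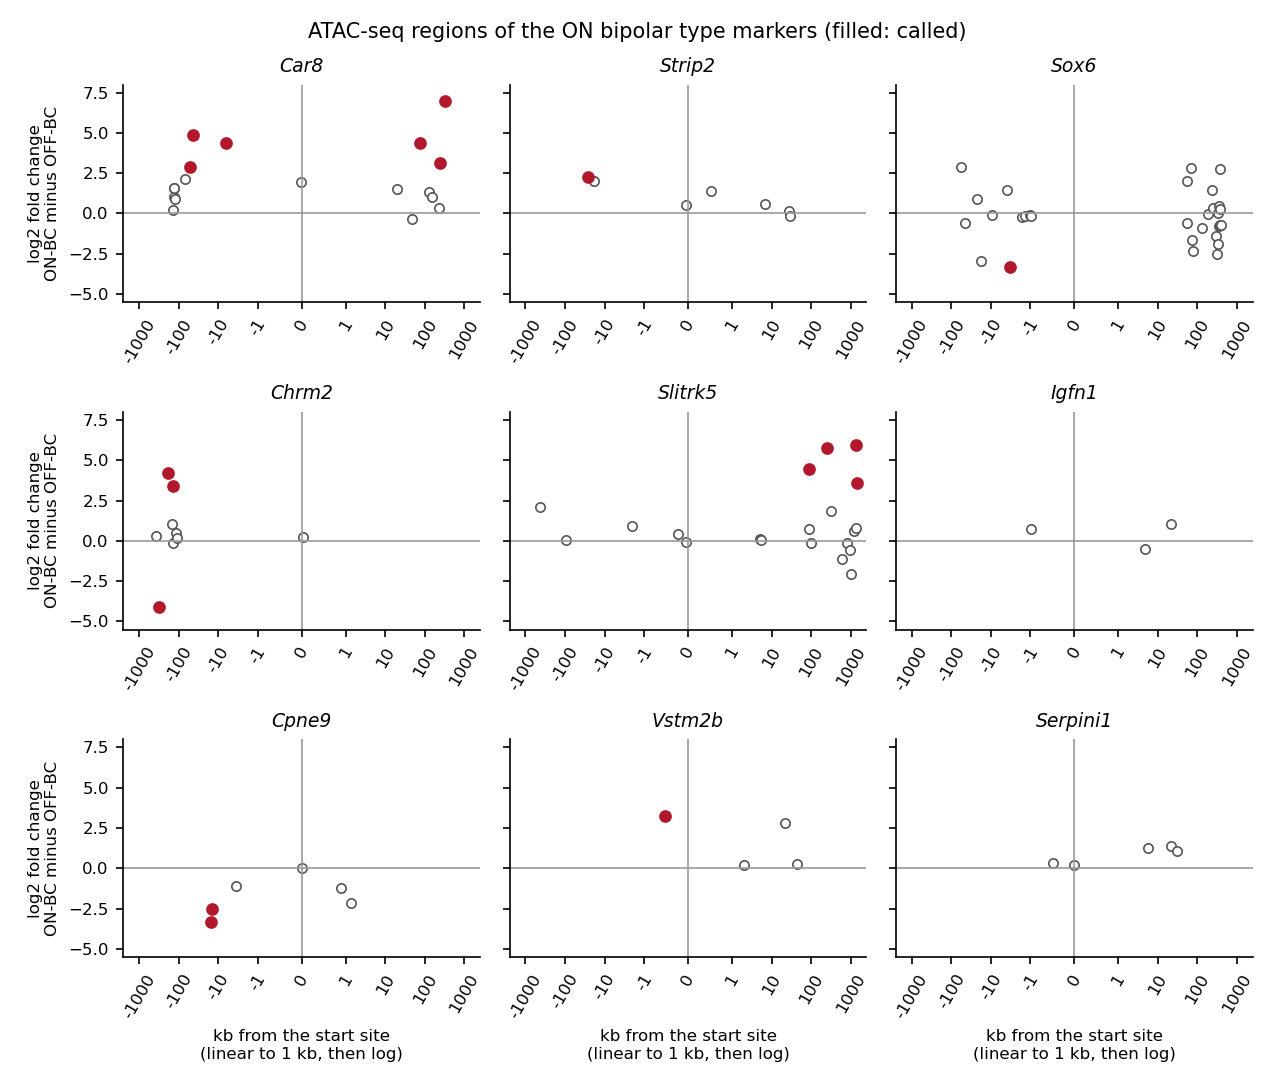
Vertical axis: log2 fold change, ON-BC minus OFF-BC, of the tested ATAC-seq regions against their distance from the start site in kb on the horizontal axis, which is linear to 1 kb and logarithmic beyond, for regions nearest to a gene or in its promoter window. Filled points were called. *Car8* and *Slitrk5* have 6 and 4 filled points above 0, all of them away from the start.

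Of the promoter regions, that of *Vstm2b* was called between the gates, and that of *Car8* was called by edgeR and not by limma. For each gene the region with the most reads in the promoter window was taken. At *Vstm2b*, 528 bp before the start, ON-BC libraries held 128 and 138, pan-BC libraries 68.8 and 91.8, OFF-BC libraries 10.8 and 16.5, and both rod libraries 0. The difference between the gates was 3.22 on the log2 scale (limma adjusted p = 0.0166). The adjusted p became 0.0706, 0.0963 and 0.114 without ON-BC replicate 1, ON-BC replicate 2 and OFF-BC replicate 1, and ranged from 0.000147 to 0.114 over 10 alternatives. The start of the noncoding gene *A230077H06Rik* on the other strand is nearer to it, so it is not among the 98. At *Car8*, 24 bp before the start, ON-BC libraries held 149 and 249 and OFF-BC libraries 62.0 and 38.0, with a log2 fold change of 1.97 (95% interval 0.73 to 3.20; limma adjusted p = 0.349), which edgeR called (adjusted p = 0.0229, the lowest of 10 alternatives, the highest being 0.875). *Strip2*, whose RNA differed by 4.06, had promoter counts of 318 and 283 in ON-BC and 182 and 232 in OFF-BC (0.54, 95% interval 0.13 to 0.95). The intervals of the other 6 promoter regions lay within -1.40 to 1.56. Several of these windows are shared with a neighbour, *Tmem9* for *Igfn1*, *Pdcd10* for *Serpini1* and *Sox6os* for *Sox6*.

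Against rods, 79 of the 98 regions were more open in pan-BC, against 40.3% of all regions, and 2, both of *Cpne9*, were more open in rods, against 11.2%. The median log2 fold change was 4.20, against 1.16 for all regions. Promoter regions differed among the genes. Those of *Slitrk5* (6.61), *Car8* (5.89), *Chrm2* (5.05) and *Cpne9* (2.68) were called higher in pan-BC. That of *Vstm2b*, at 0 in both rod libraries, was called too, with a fitted value that ran from 3.45 to 9.33 over the alternatives. The promoter region of *Strip2* was read in both populations, at 286 and 289 in pan-BC and 219 and 213 in rods (0.41, 95% interval 0.000088 to 0.82), where its RNA differed by 5.85. *Serpini1* (0.98), *Sox6* (2.23, limma adjusted p = 0.0514) and *Igfn1* (-1.35, adjusted p = 0.111) were not called. The *Sox6* region was called by edgeR (adjusted p = 0.0215), in the fit of these populations alone (0.0228) and with the replicate block (0.0335), and its adjusted p ranged from 0.0215 to 0.334 over 10 alternatives. The *Igfn1* region was called by edgeR (0.00317) and without pan-BC replicate 2 (0.046), in a range from 0.00317 to 0.42. Leaving out 1 rod library moved *Car8* between 4.41 and 7.37 and *Chrm2* between 4.37 and 5.72.

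Blue cones and rods also differed at *Car8*: its promoter region held 89.4 and 91.1 in blue cones, 62.2 and 76.0 in green cones and 0 and 6.78 in rods. This comparison was not tested. The *Slitrk5* promoter region held 36.3 and 28.9 in blue cones, 49.2 and 81.7 in green cones and 1.56 and 1.36 in rods.

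**Figure D5:**
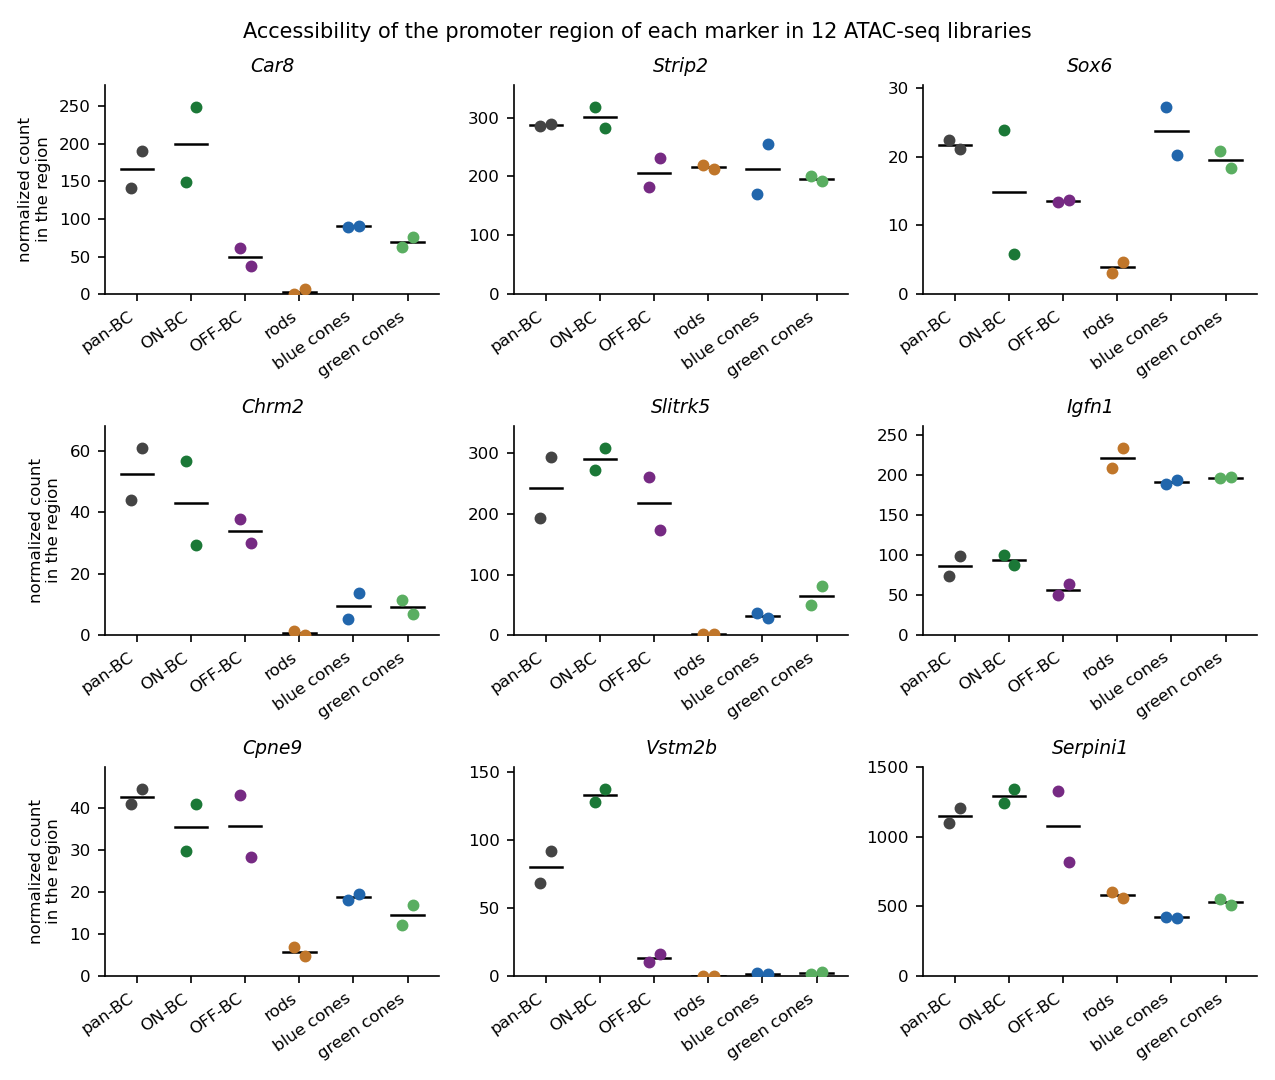
Normalized ATAC-seq count in the promoter region of each of the 9 genes in 6 populations, with 1 point per library (n = 2), a bar at the mean and a linear axis from 0. *Vstm2b* is high in ON-BC and pan-BC and near 0 in photoreceptors, and *Strip2* is open in every population. The region taken for *Igfn1*, which is nearer to the start of *Tmem9*, is highest in photoreceptors.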

How the data were processed

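RNA-seq and ATAC-seq tables of sorted mouse retinal cells were used, with groups taken from the sample labels. The authors mapped RNA-seq reads to GRCm38 by STAR (2.7.0d), and HTSeq (1.9) gave counts per RefSeq gene. ATAC-seq reads were aligned by Bowtie2, and the authors then filtered and deduplicated the alignments, kept nucleosome-free fragments and called peaks with MACS2 (2.1.1). The submitters' processing notes give Bowtie2 2.2.5, SAMtools 1.3, Picard 2.19.0, HOMER 4.8 and bedtools 2.24.0, and the study's methods differ for some of these versions. The signal values that the authors deposited for genes and for 200 bp regions are counts divided by 1 size factor per library. This was checked: 230384 of 230384 gene values and 1212862 of 1212862 region values above 0 were whole reads within 0.01. Peak lists and the 2 double-sorted green cone libraries were not used here. No column was left unmapped (0).

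Differences were tested by limma (3.58.1, R 4.3.3) on log2 of the normalized count plus 1, which understates changes of features with few reads. Features were kept by filterByExpr on recovered reads (14024 of 24062 genes, 108448 of 110715 regions). All libraries of an assay entered 1 fit, with 1 level per population and no replicate block. The treat test used a log2 fold change of 1, and Benjamini-Hochberg adjusted values below 0.05 were called. On recovered reads, edgeR (4.0.16) and DESeq2 (1.42.0) called 1226 and 981 genes between ON-BC and OFF-BC, against 919 by limma, and 12927 and 4791 regions, against 8010. The scripts were tested on simulated data. The study calls the replicates biological. Whether each library came from separate animals is not given in the sources used here, and p-values measure the spread between these libraries. Intervals and floors cover no other error.

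Other alternatives were pseudocounts of 0.5 and 8, TMM scaling, no filter, 2 populations only, a replicate block and leaving out each library. The test against no change was added after seeing the data. The 9 genes and all gene lists were chosen with earlier results of these data known. All 9 were named in every comparison, with up to 4 called genes of each list by fold change, the 3 genes most correlated with each marker, each promoter region with most reads and each called distal region with the largest fold change. Per-kb levels use RefSeq exon lengths. Sequences were read from the RefSeq GRCm38 genome and promoter table with pysam (0.24.0).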

Additional observations from a re-analysis of the deposited data

How the results depend on the processing

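In all alternatives other than the test against no change, the 4 markers called between ON-BC and OFF-BC and between pan-BC and OFF-BC, and the 0 called between pan-BC and ON-BC, gave the same counts. The counts of markers called when 1 library was left out were 4 to 4 for ON-BC versus OFF-BC, 0 to 0 for pan-BC versus ON-BC, 4 to 4 for pan-BC versus OFF-BC, 9 to 9 for pan-BC versus rods, 7 to 8 for pan-BC versus blue cones and 3 to 4 for rods versus blue cones. For member regions they were 11 to 12 for ON-BC versus OFF-BC (17 with all libraries) and 74 to 79 for pan-BC versus rods (81 with all). Among all regions the same fits called 4175 to 6118 (8010 with all libraries) and 47336 to 50887 (55914 with all). Markers called between rods and blue cones fell from 4 to 2 in the fit of these populations only and with the replicate block, without *Cpne9* and *Slitrk5*. Calls among all genes fell from 2231 to 1857 and 1633 in these fits. Member regions called between ON-BC and OFF-BC were 10 with these populations only, where 3894 of all 108448 tested regions were called. They were 33 with limma against no change, which asks for no minimum fold and called 26416 of all regions. With the replicate block the counts were 4, 0, 4, 9, 7 and 2 markers in the order above, and 17 and 85 regions. Among all features the block called 945, 131, 609, 6306, 4837 and 1633 genes, and 7667 and 60340 regions. Same-numbered ON-BC and OFF-BC libraries carry the same age, and whether they share mice or a sorting day is not given in the sources used here. Their deviations correlated at -0.07633, 0.2218 and -0.06486, and they were not treated as pairs. Uncalled log2 fold changes that changed sign are given as ranges over the fits without 1 library. Between pan-BC and ON-BC, *Slitrk5* ranged from -0.31 to 0.028 and *Serpini1* from -0.0082 to 0.084. Between rods and blue cones, *Igfn1* ranged from -1.63 to 0.0068 and *Serpini1* from -0.45 to 0.23. In promoter regions between ON-BC and OFF-BC, *Chrm2* ranged from -0.20 to 0.73, *Cpne9* from -0.29 to 0.30 (-0.22 by edgeR), *Serpini1* from -0.038 to 0.65 and *Sox6* from -1.09 to 0.77 (0.13 by DESeq2). The cause was not tested. TMM scaling moved the median of all genes by at most 0.0506 and changed the sign of no marker.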
